A study of Glycine max with 4 samples.

Results

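The 6 genes described here are the soybean genes ACT11, ELF1B, UKN1, CYP2, SKIP16 and TIP41, which are widely used as reference genes in quantitative PCR (qPCR) of soybean RNA. They were chosen by identifier, 6 of the 56044 genes in the count table, and all 6 passed the filter on low counts that left 38824 genes for testing. The data are RNA sequencing of shoot tips from 4 soybean plants (Glycine max, cultivar Thorne) grown for 1 month in a greenhouse, with 1 library per plant. Tips of 5 cm, immature trifoliate leaves included, were frozen for RNA. The 2 tagged plants are transgenic and carry mmPing20F, an activation tag built from the rice transposon mPing, inserted on chromosome 8 at position 2785626. Of the 2 untagged plants, both without that insertion, untagged 1 is a transgenic plant with the transposase expression construct and untagged 2 is an untransformed Thorne plant. The sources used here give neither the genome build of that position nor the promoters of the constructs. The name of untagged 1 differs by 1 digit between the series' design text and its sample title; both were taken to mean that plant, and the values called transgenic untagged rest on this. Whether the 3 transgenic plants come from the same or separate transformation events is not given either, so p-values measure the spread between these libraries.

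A qPCR measurement gives the amount of a transcript only relative to something else in the same RNA, so a reference gene whose level stays the same across samples is amplified beside it. Reference genes are mostly housekeeping genes with a part in the cytoskeleton, translation, protein folding or protein turnover. A reference that is itself higher or lower in some of the samples passes that difference, inverted, into every gene measured against it. ACT11 encodes an actin, a protein of the cytoskeleton. ELF1B encodes a beta subunit of translation elongation factor 1, which recharges the factor that brings aminoacyl-tRNA to the ribosome. CYP2 encodes a cyclophilin, a peptidyl-prolyl isomerase that helps proteins fold. SKIP16 is named after an Arabidopsis F-box protein that binds SKP1-like subunits of ubiquitin ligases. TIP41 is named after a yeast protein of the TOR signalling pathway that acts on type 2A phosphatases. UKN1 carries a name that stands for a product of unknown function, and no role is given for it here.

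The libraries held between 27900266 and 49210060 counts, and the 6 genes together took 0.0953% and 0.102% of them in the tagged plants, 0.109% in untagged 1 and 0.0548% in untagged 2. The untransformed library stood apart from the other 3 across the whole table, with a chi-square per degree of freedom of 242 to 314 against them and of 16.8 to 24.6 in the other pairs. None of the libraries was thus a repeat run of another, and the main results are also given for the 3 transgenic libraries alone. Levels are given as normalized counts, the read count of a gene divided by 1 size factor per library, as the authors deposited them. They are not divided by transcript length, so levels are compared between libraries and not between genes. How reads shared by near-identical gene copies, common in the duplicated soybean genome, were counted is not given, and this applies to each of the 6 genes. Bulk libraries cannot tell fewer cells of a type from less RNA per cell. The files pair no identifier with a gene name, so the shoot tip label could not be checked against marker genes.

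Over the 4 libraries, 4 of the 6 genes stayed within 2-fold between their highest and lowest library, and among the 3 transgenic plants all 6 did. Of all tested genes, 51.5% stayed within 2-fold over the 4 libraries and 89.8% did so over the 3 transgenic ones, so the count of 4 is near the background. The median ratio of highest to lowest library was 1.46 for the 6 genes against 1.96 for all tested genes. Among the transgenic plants it was 1.17 against 1.27. For the 8875 tested genes with at least the mean level of TIP41, the lowest of the 6, the median was 1.76 over the 4 libraries. Over the 3 transgenic ones it was 1.18, near the median of 1.17 for the 6 genes. The 6 genes differed there: the share of the 8875 genes that were steadier ran from 8.43% for TIP41 to 70.5% for UKN1. Of these 8875 genes, 59.8% stayed within 2-fold over the 4 libraries and 97.4% over the transgenic ones. Of the 6 genes, 5 had their lowest level in the untransformed plant and TIP41 had its highest there. Of all tested genes, 43.5% had their lowest level in that plant and 42.3% their highest.

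**Figure D1:**
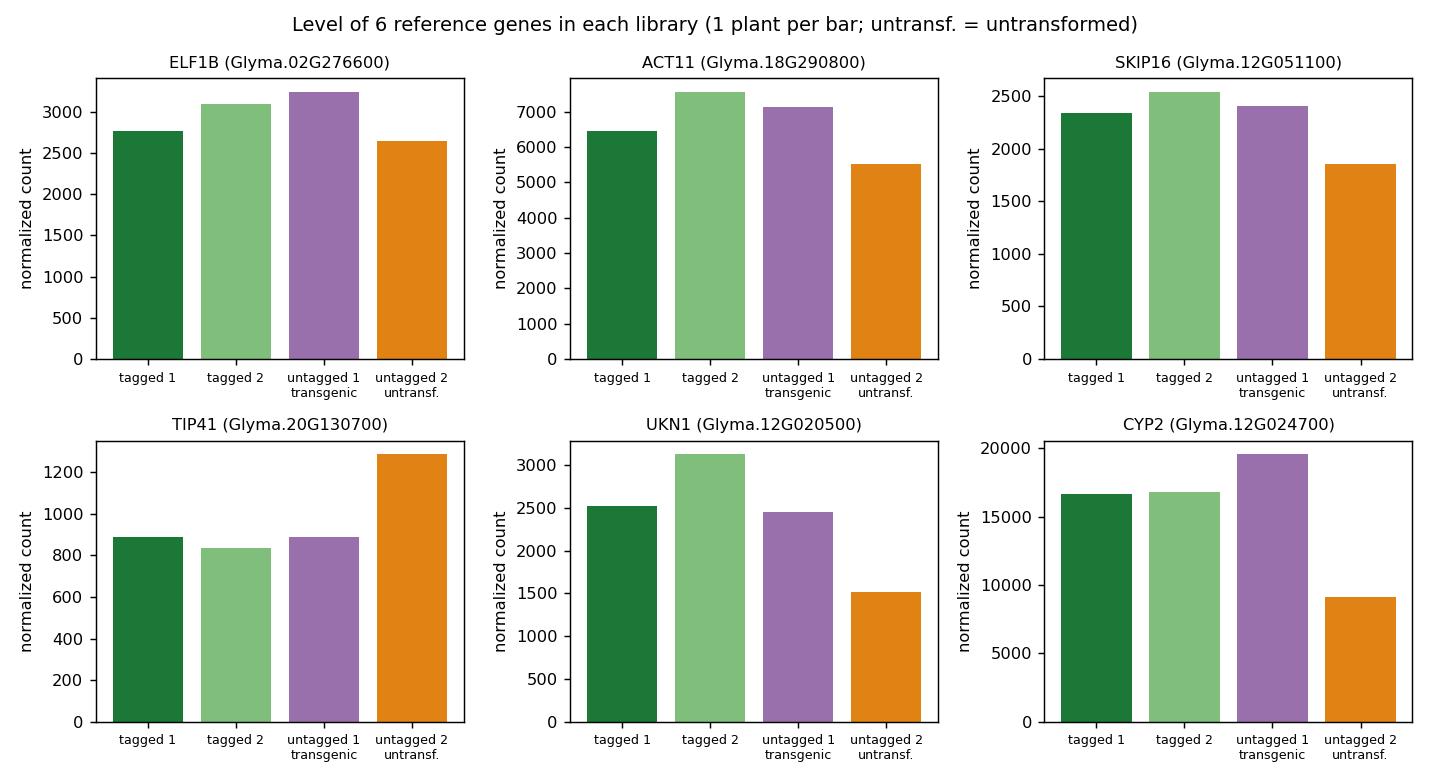
Normalized counts (vertical axes, each starting at 0) of the 6 reference genes in the 4 libraries, 1 bar per plant, ordered from the smallest to the largest ratio of highest to lowest library. The untransformed plant is the lowest bar for 5 genes and the highest for TIP41, while the 3 transgenic plants lie within 1.27-fold of each other for each gene. Of all tested genes, 43.5% were lowest and 42.3% highest in the untransformed plant.

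ACT11 (Glyma.18G290800) had 6451 and 7568 normalized counts in tagged 1 and tagged 2, 7140 in untagged 1 (transgenic) and 5531 in untagged 2 (untransformed). The 3 transgenic plants were close together, with the untagged one between the tagged ones, and the untransformed plant was below all of them. The ratio of highest to lowest library was 1.37, with a 95% interval of 1.32 to 1.42. This interval, like those below, covers counting error only and not the choice of the extreme libraries from the same counts. Over the transgenic plants alone it was 1.17.

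ELF1B (Glyma.02G276600) had 2769 and 3095 normalized counts in the tagged plants, 3242 in untagged 1 (transgenic) and 2648 in untagged 2 (untransformed). Its highest and lowest levels were both in untagged plants, so the groups overlapped fully. The ratio of highest to lowest library, 1.22 (1.16 to 1.29), was the smallest of the 6 genes over 4 libraries. Among the transgenic plants the ratio was 1.17, the same to this precision as for ACT11.

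CYP2 (Glyma.12G024700) had 16669 and 16824 normalized counts in the tagged plants, 19544 in untagged 1 (transgenic) and 9148 in untagged 2 (untransformed). The tagged plants were almost equal and lay between the untagged plants, which were the extremes on either side. The ratio of highest to lowest library was 2.14 (2.08 to 2.19), the largest of the 6 genes, and it came down to 1.17 without the untransformed plant. The level in the untransformed plant was 0.517 times the transgenic mean of 17679 ± 1617 (SD, n = 3).

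UKN1 (Glyma.12G020500) had 2519 and 3126 normalized counts in the tagged plants, 2458 in untagged 1 (transgenic) and 1515 in untagged 2 (untransformed). Both tagged plants were above both untagged plants, an order that 14.7% of all tested genes showed and 14.4% showed in reverse. The ratio of highest to lowest library was 2.06 (1.93 to 2.21) over all plants and 1.27 (1.20 to 1.35) over the transgenic ones. Among the transgenic plants UKN1 therefore had the widest range of the 6 genes, with tagged 2 as its high point.

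SKIP16 (Glyma.12G051100) had 2339 and 2539 normalized counts in the tagged plants, 2407 in untagged 1 (transgenic) and 1854 in untagged 2 (untransformed). It followed the order of ACT11 in every library, with tagged 2 highest and the untransformed plant lowest. Its ratio of highest to lowest library was 1.37 (1.28 to 1.46), and 1.09 (1.03 to 1.15) among the transgenic plants. The RefSeq table of the Glycine_max_v4.0 assembly gives the symbol SKIP16 to a gene on chromosome 11, whereas this identifier is numbered on chromosome 12. The values here are those of the identifier. The same table holds the symbols ELF1B and CYP2 on chromosomes 2 and 12, as the identifiers do.

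TIP41 (Glyma.20G130700) had 886 and 836 normalized counts in the tagged plants, 886 in untagged 1 (transgenic) and 1285 in untagged 2 (untransformed). The 3 transgenic plants could not be told apart at this depth: their ratio of highest to lowest was 1.06, with a counting interval of 0.958 to 1.17 that includes 1. The untransformed plant was 1.48 times the transgenic mean of 869 ± 29.1 (SD, n = 3), the only rise among the 6 genes in that plant.

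Among the 3 transgenic plants, the coefficient of variation was 3.35% for TIP41, 4.2% for SKIP16, 7.98% for ELF1B, 7.99% for ACT11, 9.14% for CYP2 and 13.7% for UKN1. Counting error alone would give 3.36% for TIP41, which has the lowest level of the 6 genes, and 2.0% for SKIP16. For the other 4 genes it would give 0.743% to 1.90%, well below the spread seen. With the untransformed plant included the order became ELF1B at 9.42%, SKIP16 at 13.1%, ACT11 at 13.3%, TIP41 at 21.5%, UKN1 at 27.7% and CYP2 at 28.7%. ACT11 and SKIP16 stood next to each other in this second order, and ELF1B stood between them in the first.

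Set against all 38824 tested genes, ELF1B was one of the steadier genes of the table: 8.61% of tested genes had a smaller ratio of highest to lowest library. For ACT11 the share was 19.5%, for SKIP16 19.6% and for TIP41 30.6%. UKN1 and CYP2 were in the middle of the table, with 53.6% and 55.7% of tested genes steadier than they were. The background shifted among the transgenic plants, where 5.53% of genes were steadier than TIP41 and 10.5% were steadier than SKIP16. There, 30.5% to 31.0% of genes were steadier than ELF1B, CYP2 and ACT11, and 50.6% were steadier than UKN1. The 6 genes have high counts, which narrows the counting error of their ratios. Among the 8875 tested genes with at least the mean level of TIP41 (973 normalized counts), the share steadier over 4 libraries was 11.5% for ELF1B. It was 24.4% for ACT11, 24.5% for SKIP16, 36.9% for TIP41, 62.0% for UKN1 and 64.0% for CYP2. Over the transgenic plants the share of those genes was 8.43% for TIP41 and 16.1% for SKIP16. It was 45.7% for ELF1B, 46.1% for CYP2, 46.4% for ACT11 and 70.5% for UKN1. Among genes at or above its own mean level, 34.5% were steadier than CYP2 over 4 libraries. For UKN1 that share was 54.8%.

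**Figure D2:**
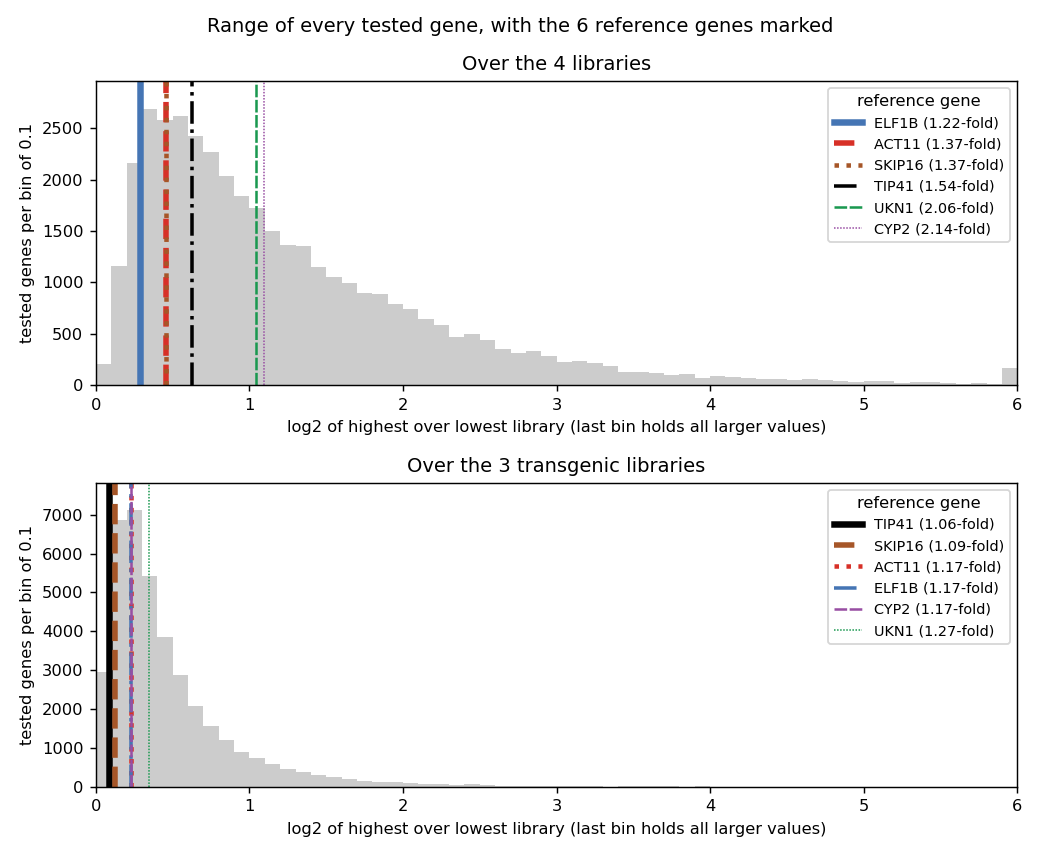
Number of tested genes (vertical axis) by the log2 ratio of highest to lowest library (horizontal axis), over all 4 libraries in the upper panel and over the 3 transgenic libraries in the lower panel. Lines mark the 6 reference genes, some of which coincide: ACT11 and SKIP16 at 1.37-fold in the upper panel, and ACT11, ELF1B and CYP2 at 1.17-fold in the lower one. UKN1 and CYP2 sit near the middle of the upper distribution and ELF1B near its left edge.

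The study compared plants with and without the tag. In that comparison none of the 6 genes passed the test. With edgeR's quasi-likelihood test 0 of the 6 had an adjusted p under 0.05, where 0% of all 38824 genes did. At an unadjusted p under 0.05 the count was also 0 of 6, against 1.14% of all genes. DESeq2 called 0 of the 6, against 0.069% of all genes. The log2 fold change of tagged over untagged plants was 0.15 ± 0.36 (SE) for ACT11 (edgeR adjusted p = 0.956). It was 0.20 ± 0.29 for SKIP16 (edgeR adjusted p = 0.949) and 0.51 ± 0.37 for UKN1 (edgeR adjusted p = 0.947). TIP41 had -0.33 ± 0.30, also with an edgeR adjusted p of 0.947. ELF1B was at 0.00 ± 0.30 (edgeR adjusted p = 0.997). Its mean was 2932 ± 231 normalized counts over the tagged and 2945 ± 420 over the untagged pair (SD, n = 2).

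A p that misses the threshold does not show that these genes are equal between the groups, and the intervals were wide. The 95% interval of the log2 fold change ran from -0.80 to 0.79 for ELF1B and from -0.59 to 0.99 for SKIP16. For CYP2 the fold change was 0.23 ± 0.55 (edgeR adjusted p = 0.956) and the interval ran from -1.25 to 1.71, since its untagged plants were at 9148 and 19544. The exact permutation test for a single gene cannot go below 0.333 with 2 plants against 2.

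With the transgenic untagged plant as the only control, a fit that lends this lone library the spread of the tagged plants, 0 of the 6 genes passed (edgeR), against 0.0101% of all genes. Here the log2 fold changes were small, from -0.22 ± 0.18 for CYP2 to 0.21 ± 0.18 for UKN1. ACT11 was at -0.02 and TIP41 at -0.03 in this fit. The direction for ACT11 and CYP2 thus turned with the control: both were positive with both untagged plants and negative without the untransformed one. Where only the untransformed plant served as control, 3 of 6 passed, where 49.4% of all genes did.

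The untransformed plant was compared with the 3 transgenic plants to ask how the reference genes held up in the library that stood apart. UKN1 and CYP2 were lower there and TIP41 was higher. These are 3 of the 6 genes by edgeR's quasi-likelihood test, and 49.1% of all 40884 genes tested in this comparison were also called. The share among the reference genes is therefore that of the table as a whole. By direction, 1 of the 6 was higher and 2 were lower, against 25.8% and 23.3% of all genes. DESeq2 also called UKN1, CYP2 and TIP41, among 38.1% of all genes. Only 1 library stands on one side, and the fit lends it the spread of the 3 transgenic plants. The standard errors and p-values here and below therefore hold no spread between untransformed plants. Transgenic status, line and anything else particular to that plant or its preparation cannot be told apart.

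CYP2 fell by 0.97 ± 0.22 (SE) on the log2 scale in the untransformed plant (edgeR adjusted p = 0.0111), and it was below all 3 transgenic plants. UKN1 fell by 0.85 ± 0.20 (edgeR adjusted p = 0.0118), again below all 3. TIP41 rose by 0.54 ± 0.13 (edgeR adjusted p = 0.0154) and was above all 3; under upper-quartile scaling its value was 0.36 with an edgeR adjusted p of 0.0619. SKIP16 was at -0.41 ± 0.15 on the same scale, just outside the threshold (edgeR adjusted p = 0.0597). ACT11 had -0.37 ± 0.19 (edgeR adjusted p = 0.139). ELF1B had -0.22 ± 0.17 (edgeR adjusted p = 0.308), with a 95% interval of -0.61 to 0.18. An untransformed level below all 3 transgenic levels, as in 5 of these genes, was found in 43.5% of all tested genes, and a level above all 3 in 42.3%.

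The size of these differences depended on how libraries were scaled. The untransformed library had a larger total (34186179 counts) than untagged 1 (30958755) but a smaller size factor, 0.852 against 0.942. As CPM, counts scaled to the library total, ACT11 was at 194 and 228 in the tagged plants, 217 in untagged 1 and 138 in untagged 2. On this scale the untransformed plant was at 0.647 times the transgenic mean for ACT11, against 0.784 by size factors. CYP2 went from 0.517 to 0.426 and ELF1B from 0.872 to 0.719. TIP41 came closer to its own transgenic mean, from 1.48 to 1.22 times. Its CPM values were 26.7, 25.1, 27.0 and 32.0 in the same order of plants. By total counts TIP41 then had the smallest ratio of highest to lowest library, 1.27, and ELF1B had 1.5. Under upper-quartile scaling TIP41 again had the smallest, 1.35, and ELF1B had 1.4. Which of the 6 genes is called steadiest over 4 libraries therefore depends on the scaling. The direction in the untransformed plant was the same for each of the 6 genes under size factors, TMM, upper-quartile and total-count scaling. Upper-quartile scaling moved the median log2 fold change of all genes from -0.03 to -0.21.

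Ratios between reference genes within a library need no scaling, and they are what a qPCR experiment with several references sees. The pair that kept its ratio best was ACT11 and SKIP16. ACT11 had 2.76, 2.98, 2.97 and 2.98 times the counts of SKIP16 in tagged 1, tagged 2, untagged 1 and untagged 2. The SD of the log2 ratio was 0.055, not far above the 0.0357 that counting error alone would give. The untransformed library did not stand out in this ratio. ACT11 and ELF1B also kept together, with ratios of 2.33, 2.45, 2.20 and 2.09 in the same order and an SD of 0.0986.

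The pairs that parted most were those with TIP41. CYP2 had 18.8, 20.1 and 22.1 times the counts of TIP41 in the transgenic plants and 7.12 times in the untransformed plant, an SD of 0.761 on the log2 scale. The ratio of UKN1 to TIP41 went from 2.84, 3.74 and 2.77 to 1.18. In both pairs the transgenic plants were high and the untransformed plant was low. UKN1 and CYP2 were both low in the untransformed plant and their ratio there, 0.166, was inside the transgenic range of 0.126 to 0.186.

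**Figure D3:**
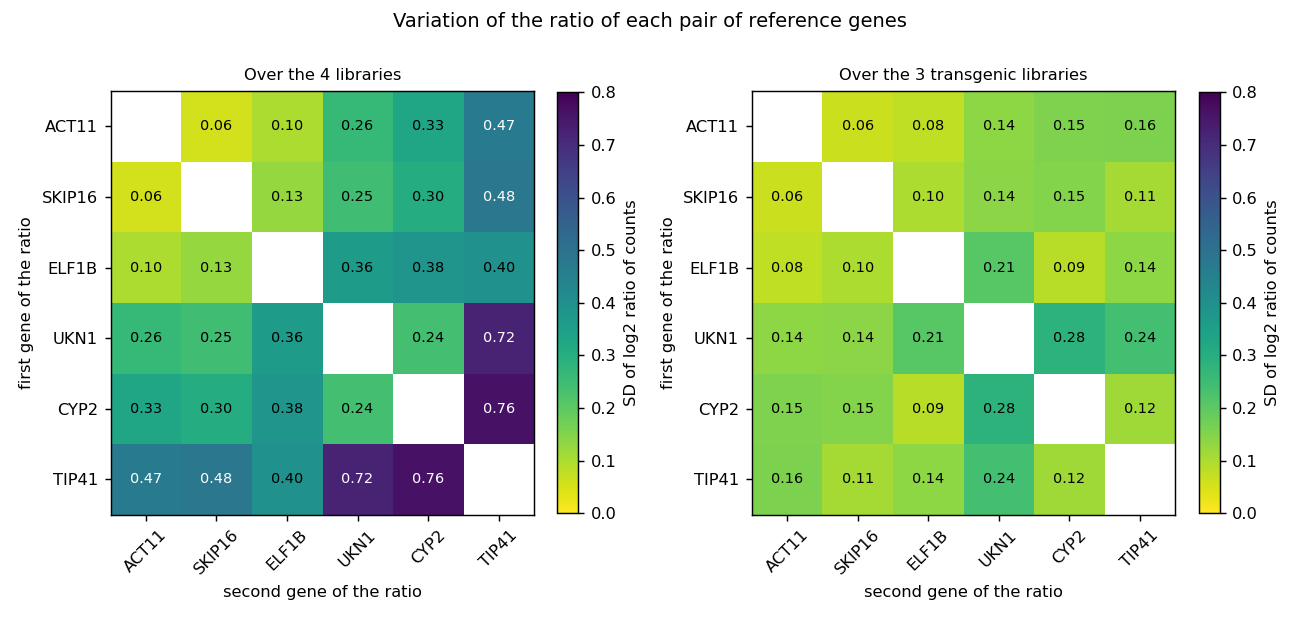
SD of the log2 ratio of raw counts for each of the 15 pairs of reference genes, over the 4 libraries on the left and over the 3 transgenic libraries on the right; darker cells vary more. The row of TIP41 is the darkest on the left, up to 0.761 with CYP2, and no cell exceeds 0.282 on the right.

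The mean SD of a gene against the other 5, known as M in the ranking of qPCR references, was 0.243 for ACT11, 0.243 for SKIP16 and 0.272 for ELF1B. It was 0.366 for UKN1, 0.402 for CYP2 and 0.567 for TIP41. Removing the gene with the highest M one at a time took out TIP41, CYP2, UKN1 and ELF1B in that order and left ACT11 and SKIP16. The mean M fell along the way from 0.349 for 6 genes to 0.240, 0.191 and 0.0931 for 5, 4 and 3 genes. Among the transgenic plants the mean M was 0.143 and UKN1, with 0.201, was the first to go, followed by TIP41, CYP2 and ELF1B. ACT11 and SKIP16 were again the last pair. M ranks genes by agreement with the rest of the list, so a gene that moves alone is ranked last whether or not its own level is steady: TIP41 had the smallest range of the 6 genes among the transgenic plants and was removed second there.

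Scaling the libraries by a reference gene shows what its use would do to all other genes. By the geometric mean of the 6 genes, the library factors departed from the all-gene size factors by 0.01 (tagged 1), 0.14 (tagged 2), 0.12 (transgenic untagged) and -0.27 (untransformed) on the log2 scale, a 1.32-fold range. Among the transgenic plants the range was 1.09-fold. A single reference gives, by construction, its own ratio of highest to lowest library. These were 1.22-fold for ELF1B, 1.37-fold for ACT11 and SKIP16, 1.54-fold for TIP41, 2.06-fold for UKN1 and 2.14-fold for CYP2. The geometric mean of ACT11 and SKIP16, the pair left last, gave 1.37-fold, more than ELF1B alone: both genes were low together in the untransformed plant, which their steady ratio does not show.

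**Figure D4:**
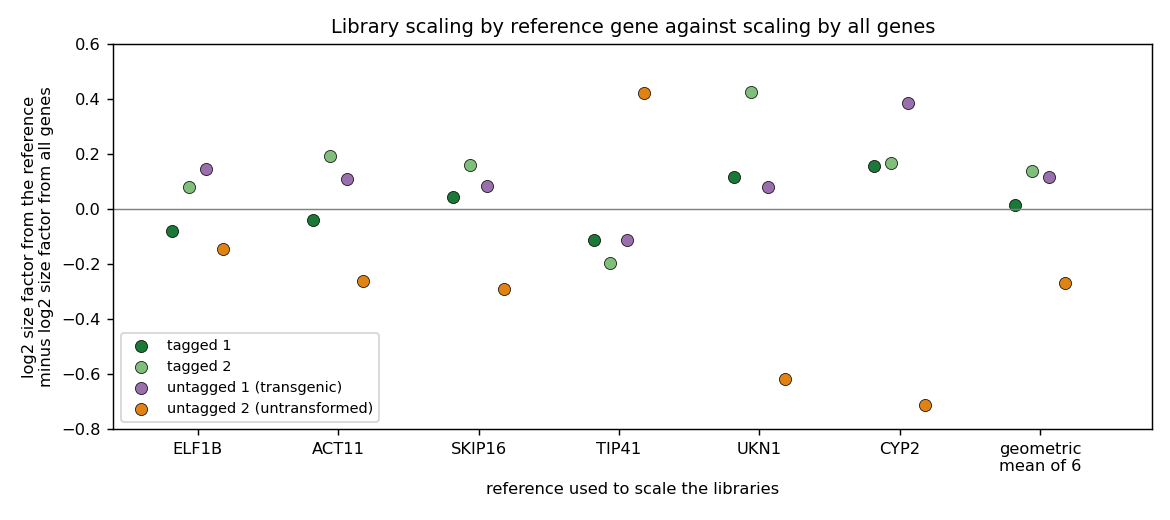
Log2 size factor from each reference gene, or from the geometric mean of the 6, minus the log2 size factor from all genes (vertical axis), 1 point per library. The untransformed plant lies below 0 for each reference except TIP41, where it lies at 0.42, and reaches -0.71 with CYP2.

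The median gene followed, since scaling by a reference passes its own difference, inverted, into every gene. Over the 32834 genes whose mean was 50 normalized counts or more, the median ratio of the untransformed plant to the transgenic mean was 1.01 by the all-gene size factors. It became 1.15 when libraries were scaled by ELF1B, 1.28 by ACT11, 1.32 by SKIP16, 1.77 by UKN1 and 1.93 by CYP2, and it fell to 0.68 by TIP41. The share of genes over 2-fold higher in the untransformed plant was 17.1% by size factors, 21.2% by ELF1B, 48.1% by CYP2 and 9.76% by TIP41. The share over 2-fold lower was 18.3% by size factors, 5.25% by CYP2 and 33.3% by TIP41. CYP2 and TIP41 thus gave opposite balances for the same libraries.

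The choice of reference also moved the fold of the gene that the authors marked. The authors' deposited table gives a fold of 4.09 for Glyma.08G035100, which had 274 and 116 raw counts in the tagged plants, 49 in untagged 1 (transgenic) and 23 in untagged 2 (untransformed). Per 1000 counts of ACT11 these are 28.6, 18.3, 7.28 and 4.88, so that the tagged plants were above both untagged plants. By normalized counts, 14.7% of all tested genes showed that order. Against each reference in turn, the mean of tagged over the mean of untagged plants was 3.86-fold by ACT11, 4.25-fold by ELF1B, 3.69-fold by SKIP16, 3.44-fold by CYP2, 3.02-fold by UKN1 and 4.69-fold by TIP41. All 6 references gave the same direction, and the highest value was 1.55 times the lowest. The shared direction follows from the size of the fold and is no separate result of each reference. Between the groups the references themselves changed by at most 0.51 on the log2 scale (UKN1, edgeR). The choice of control mattered more with some references than with others. Against the transgenic untagged plant alone the 6 folds ran from 2.78 (UKN1) to 3.63 (CYP2), a 1.31-fold spread. Against the untransformed plant alone they ran from 3.27 (CYP2) to 8.89 (TIP41), a 2.72-fold spread.

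For Glyma.08G035000, the gene numbered just before it, the tagged plants had 238 and 201 counts per 1000 counts of ACT11, against 28.4 and 52.7 in the transgenic and untransformed untagged plants. Over both untagged plants the fold ran from 3.99 by UKN1 to 7.81 by TIP41. Against the transgenic plant it ran from 6.65 by UKN1 to 8.80 by CYP2, and against the untransformed plant from 2.85 by UKN1 to 7.84 by TIP41. By CYP2 the fold against the untransformed plant, 2.87, was well below that against the transgenic plant, while by TIP41 the values against the 2 controls were 7.84 and 7.77. These ratios have no error beyond the values of the 4 libraries.

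**Figure D5:**
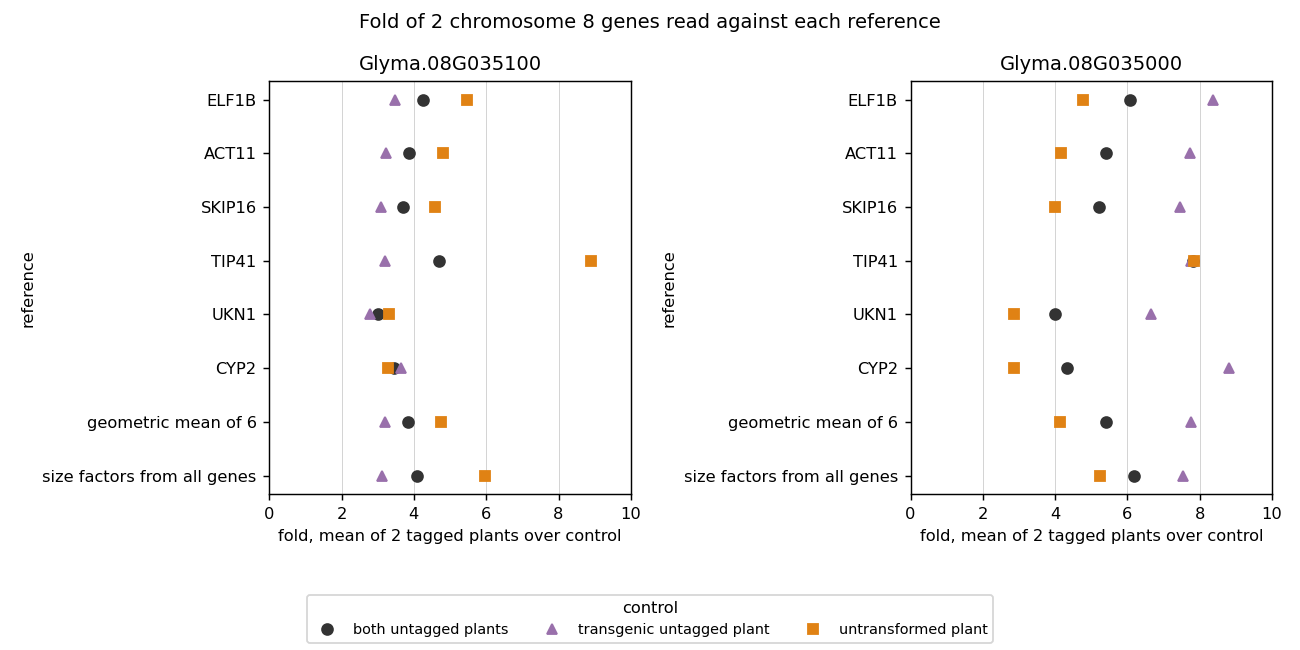
Fold of the mean of 2 tagged plants over a control (horizontal axis) for 2 chromosome 8 genes read against each reference (vertical axis); circles use both untagged plants, triangles the transgenic one and squares the untransformed one. For Glyma.08G035100 the triangles lie between 2.78 and 3.63 and the squares spread from 3.27 to 8.89.

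Of the 6 genes, 3 are numbered on chromosome 12: UKN1, CYP2 and SKIP16. Among the 5 identifiers on each side of each of the 6 genes, 51 of 60 were tested. Of those 51, 34 stayed within 2-fold over the 4 libraries, where 51.5% of all tested genes did. The median ratio of highest to lowest library was lowest around ELF1B, at 1.46 over 9 neighbours, and highest around TIP41, at 2.28 over 10. The 8 tested neighbours of CYP2 had a median of 1.55, below the 2.14 of CYP2 itself. The untransformed plant was below all 3 transgenic plants at 24 of the 51 neighbours and above them at 20. Over all tested genes these shares were 43.5% and 42.3%, so the counts are near the background.

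Genes with a like profile over these 4 libraries were searched for 2 of the references, ELF1B and CYP2. By size factors, ELF1B had the smallest ratio of highest to lowest library among the references and CYP2 the largest. Nearest to ELF1B was Glyma.19G109200, with 318, 349, 367 and 304 normalized counts in tagged 1, tagged 2, untagged 1 and untagged 2. Its centred log2 profile lay 0.0236 from that of ELF1B, and 260 of 29523 genes lay within 0.1. Nearest to CYP2 was Glyma.20G018500, with 2291, 2346, 2713 and 1273 normalized counts and a distance of 0.0158, and 123 genes lay within 0.1. Among the 148 tested genes at or above the mean level of CYP2, 51 were steadier than CYP2. The smallest ratios of highest to lowest library among those 148 belonged to Glyma.07G215300 and Glyma.05G114900, both at 1.14. Glyma.07G215300 had 21679, 21643, 23901 and 21016 normalized counts, and Glyma.05G114900 had 26993, 29141, 30857 and 27397. These identifiers were picked for their small range, so their values are a description of these 4 libraries.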

How the data were processed

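RNA was sequenced from shoot tips of 4 plants. Named in the submitters' processing notes, without their roles, are HISAT2 2.1.0, HTSeq 0.6.1, CASAVA 1.8 and DESeq2; the sources used here give no genome build, annotation or strand setting. The first deposited table holds raw read counts per gene. The second deposited table holds the same counts as a signal scaled by a single size factor for every library: multiplying back gave whole numbers within 0.01 for 100% of values, equal to the raw counts, so a count test on them is the same test. It also holds 1 fold ratio of the authors, deposited under no column name. No per-sample column was left unused. The RefSeq table (59048 genes) matched 0 identifiers, so names come from the chosen list, no other reference genes were named and no sequences are shown.

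Genes were tested by edgeR's quasi-likelihood method (version 4.0.16, under R 4.3.3), fitted on all genes, with TMM scaling, the default low-count filter and Benjamini-Hochberg adjustment at 0.05; standard errors are the absolute log2 change over the square root of F. Alternatives were limma-voom (limma 3.58.1), DESeq2 1.42.0, other scalings and filters, the replicate block, transgenic status as a covariate and leaving out each library. Tests were checked on simulated data in which no library stood apart across the whole table. The spread between libraries set there was below that fitted for tagged against untagged plants, so the check does not cover that spread. Ratios over all genes used a pseudocount of 1 and intervals are exact Clopper-Pearson, covering counting error only. They treat the highest and lowest library as fixed, although both were picked from the same counts. Named beside the 6 genes were the gene marked in the authors' table and the one numbered before it. Also named were the nearest profiles (mean of at least 100) to the references with the smallest and largest size-factor ratio over all libraries. The last were the 2 steadiest genes at or above the highest reference level. Neighbours were taken in identifier order, since the files are not sorted. The members and lists were chosen with earlier results of these data known. Same-numbered libraries had a correlation of deviations of -0.0524 and were not treated as pairs.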

Additional observations from a re-analysis of the deposited data

How the results depend on the processing

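The counts of reference genes called, the count within 2-fold, M, the scaling range and the fold of Glyma.08G035100 were labelled the same in 47 of 51 alternative settings. The exceptions all involved the untransformed plant or the total counts. For counts the label set a limit on the ratio to the main count. The 6 genes within 2-fold without the untransformed plant were thus labelled the same as the main 4. The other values were the same if they shifted by less than a spread, for M the spread over the pairs of genes. Leaving out 1 library gave 0 to 3 genes called between tagged and untagged plants, the 3 arising where only the untransformed plant served as control. Leaving out 1 library gave a mean M of 0.143 (without the untransformed plant) to 0.406 and a scaling range of 0.125 (again without that plant) to 0.406. The scaling range was 0.677 with total-count scaling. With the replicate number as a block, 0 genes were called. The sign of small, uncalled changes between tagged and untagged plants turned for ELF1B (reported value -0.0046), which was 0.010 with limma-voom, 0.084 with upper-quartile scaling, 0.014 without a low-count filter, 0.012 at a mean of at least 50 counts and 0.0004 with the replicate block; leaving out 1 library gave it -0.138 to 0.170. With transgenic status as a covariate ACT11 was at -0.020 and CYP2 at -0.216. Over the left-out libraries ACT11 ran from -0.020 to 0.365 and CYP2 from -0.215 to 0.896. In the untransformed against transgenic comparison, upper-quartile scaling gave 8675 higher and 11739 lower genes against 10555 and 9510, and it called ACT11 and SKIP16 and lost TIP41; limma-voom called SKIP16. The cause of these changes was not tested. Depth limits TIP41 most, whose spread among the transgenic plants is that of counting error.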
